A study of Mus musculus with 37 samples.

Results

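Smchd1 and the genes of its recruitment route, Lrif1, Hnrnpk, Pcgf3 and Pcgf5, were followed per embryo in the tailbud RNA-seq series. The members were chosen by symbol, and all 5 were found among the 35542 genes of the raw count table. Counts came from the tailbud of 37 F1 embryos of C57BL/6 mothers and Castaneus fathers, 1 library per embryo. The 21 Smchd1 wt embryos are labelled Smchd1[fl/+], so the maternal allele they carry is floxed but was not deleted, and their mothers had no Cre transgene. The 16 Smchd1 matΔ embryos are labelled Smchd1[del/+]. Their mothers carried MMTV-Cre, a transgene active in the oocyte in this cross, so these embryos had neither the oocyte supply of SMCHD1 nor an intact maternal copy of the gene. Per the published methods, these mothers were Smchd1[del/fl] and those of the Smchd1 wt embryos Smchd1[fl/fl]. The loss of the maternal copy, the loss of the oocyte supply and the mothers' own Smchd1 genotype cannot be told apart in these libraries. The embryos were at embryonic day 8 to 8.5 and had 6 to 11 somites, the blocks of mesoderm that form in sequence and date an embryo. From 6 to 11 somites the Smchd1 wt groups held 4, 4, 3, 3, 4 and 3 embryos, and the Smchd1 matΔ groups 4, 3, 2, 2, 3 and 2. The 6-somite embryos, and the Smchd1 matΔ embryos with 8 or 9 somites, were all female.

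SMCHD1 is a noncanonical member of the structural maintenance of chromosomes family that takes part in silencing of the inactive X chromosome, imprinted clusters and other repeated gene clusters. LRIF1 is a nuclear protein that binds SMCHD1 and the heterochromatin protein HP1. On the inactive X, the RNA-binding protein HNRNPK links Xist RNA to Polycomb repressive complex 1 (PRC1) containing PCGF3 or PCGF5, which ubiquitinates histone H2A, and this modification is needed for SMCHD1 to be recruited there.

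Library totals ranged from 0.916 to 80.6 M counts. All 8 tailbud and presomitic mesoderm markers (T, Tbx6, Cdx2, Wnt3a, Fgf8, Nkx1-2, Hes7 and Msgn1) were above 0 in every embryo, and their summed level was 511 to 1313 CPM (counts scaled to library size, with TMM factors). The tissue also held other cells, since the summed level of 5 erythroid markers was 8.62 to 4127 CPM. In bulk tissue, fewer cells of a type and less RNA per cell cannot be told apart. A set of 3 libraries stood apart. Smchd1 matΔ replicates 1 and 2 at 6 somites had 2.77% and 1.82% of their counts on the ribosomal RNA locus, against 0.176% to 1.28% in the other libraries. Their summed level of 4 somite markers was 13.7 and 46.6 CPM, against a median of 3.51 CPM over all embryos. Smchd1 matΔ replicate 3 at 10 somites had 13.4 CPM of these markers. Replicate 2 at 6 somites also had the highest summed heart marker level, 8.15 CPM. Smchd1 wt replicate 1 at 10 somites had a summed tailbud marker level of 511 CPM, against 725 to 1313 CPM in the others.

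The members lie on separate chromosomes. In GRCm38, Smchd1 (ENSMUSG00000024054) spans chr17:71344489-71475343 on the minus strand, with 48 exon blocks and 19982 exonic bases. Lrif1 (ENSMUSG00000056260) spans chr3:106684987-106736577 on the plus strand, and Hnrnpk (ENSMUSG00000021546) spans chr13:58391142-58403343 on the minus strand. Pcgf3 (ENSMUSG00000033623) spans chr5:108461232-108506976 and Pcgf5 (ENSMUSG00000024805) spans chr19:36348309-36460970, both on the plus strand. Over all embryos Smchd1 received 67559 counts, Hnrnpk 701603, Pcgf3 58385, Pcgf5 16753 and Lrif1 11064.

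The start regions of the 3 members on which the results below turn are shown as a description of the loci, because no measurement here was made on promoters. Each window runs from 250 bases before to 50 bases after a RefSeq start (GRCm38.p6), 5′ to 3′ on the strand of the gene. Capitals mark GGGCGG, the core of the GC box, read on either strand, and sites in Smchd1 that share a base run together. The windows are chr17:71475294-71475593 (minus) for Smchd1, chr5:108461009-108461308 (plus) for Pcgf3 and chr19:36348079-36348378 (plus) for Pcgf5.
Smchd1 start region: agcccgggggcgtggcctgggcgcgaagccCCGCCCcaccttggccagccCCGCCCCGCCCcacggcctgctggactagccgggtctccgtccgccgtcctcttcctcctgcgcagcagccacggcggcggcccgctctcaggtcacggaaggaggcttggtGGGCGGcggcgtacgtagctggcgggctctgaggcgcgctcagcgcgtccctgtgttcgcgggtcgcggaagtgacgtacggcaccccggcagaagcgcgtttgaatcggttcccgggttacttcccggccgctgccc
Pcgf3 start region: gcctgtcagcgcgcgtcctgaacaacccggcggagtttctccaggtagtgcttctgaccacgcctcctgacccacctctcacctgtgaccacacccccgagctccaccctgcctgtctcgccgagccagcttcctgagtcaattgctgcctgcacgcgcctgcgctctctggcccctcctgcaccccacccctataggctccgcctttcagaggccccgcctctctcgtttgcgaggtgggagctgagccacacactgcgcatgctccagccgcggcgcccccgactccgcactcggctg
Pcgf5 start region: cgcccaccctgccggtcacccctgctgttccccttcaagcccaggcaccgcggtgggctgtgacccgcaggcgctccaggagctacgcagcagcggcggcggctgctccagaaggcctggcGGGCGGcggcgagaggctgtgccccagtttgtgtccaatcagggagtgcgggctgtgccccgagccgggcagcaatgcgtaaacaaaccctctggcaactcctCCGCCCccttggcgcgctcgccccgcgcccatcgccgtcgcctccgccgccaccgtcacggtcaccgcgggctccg
The Smchd1 window was 74.0% G and C with 40 CpG dinucleotides and 4 matches to GGGCGG. The Pcgf5 window, the most upstream of 3 in the RefSeq table for that gene, was 73.0% G and C with 34 CpG and 2 matches, and the Pcgf3 window was 67.3% G and C with 23 CpG and 0 matches. Over all 32851 RefSeq promoter windows the median was 52.7% G and C and 7 CpG, and 35.7% held GGGCGG.

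The first comparison asked how much Smchd1 RNA remained in tailbud of Smchd1 matΔ embryos. At 6 somites, Smchd1 was at 171, 136, 136 and 105 CPM in the 4 Smchd1 wt embryos and at 91.5, 112, 72.4 and 83.3 CPM in the 4 Smchd1 matΔ embryos. At 7 somites it was at 143, 126, 150 and 141 CPM in Smchd1 wt and at 76.1, 98.0 and 87.6 CPM in Smchd1 matΔ embryos. The genotypes were apart at 7 somites, whereas at 6 somites the lowest Smchd1 wt embryo was below the highest Smchd1 matΔ embryo, which was 1 of the 2 ribosomal RNA rich libraries. At 8 somites the values were 140, 204 and 152 CPM against 81.6 and 99.0 CPM. At 9 somites they were 142, 163 and 161 CPM against 64.0 and 96.5 CPM. Every Smchd1 matΔ embryo was below every Smchd1 wt embryo at both of these stages. At 10 somites Smchd1 was at 105, 149, 163 and 153 CPM in Smchd1 wt and at 78.8, 98.5 and 108 CPM in Smchd1 matΔ embryos. At 11 somites it was at 184, 160 and 155 CPM against 77.0 and 95.3 CPM. The overlap at 10 somites came from Smchd1 wt replicate 1, the library with low tailbud markers, and at 11 somites the genotypes were apart again.

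**Figure D1:**
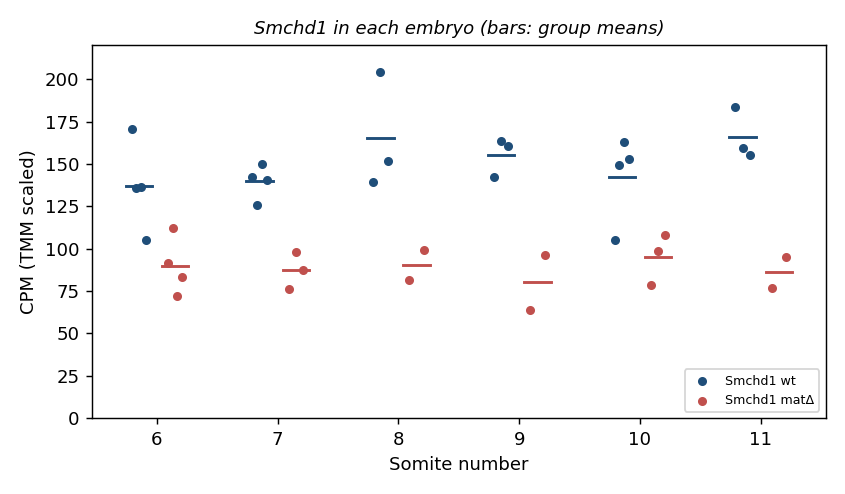
Smchd1 level in CPM (vertical axis) against somite number (horizontal axis), with 1 point per embryo and a bar at each group mean. The Smchd1 matΔ embryos lie between 64.0 and 112 CPM and the Smchd1 wt embryos between 105 and 204 CPM, with overlap at 6 and 10 somites.

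Within each stage the Smchd1 matΔ mean was 51.6% to 66.8% of the Smchd1 wt mean. All 16 Smchd1 matΔ embryos were below the Smchd1 wt mean of their own stage, which 8 of the 15978 genes tested showed (0.0501%). At 4 of the 6 stages the genotypes did not overlap, with Smchd1 lower in Smchd1 matΔ embryos, and among all genes tested Smchd1 alone did so at 4 or more stages (0.00626%). In the fit over all stages, with somite number and sex as covariates, Smchd1 was lower by -0.74 on the log2 scale (SE 0.075, 95% interval -0.89 to -0.59, adjusted p = 1.45e-07, edgeR quasi-likelihood test). This corresponds to 59.8% of the Smchd1 wt level, with an interval of 53.8% to 66.4%. Smchd1 had the smallest p-value of all genes. Only 2 genes (0.0125%) were called between genotypes, Smchd1 and the imprinted gene Peg12, which was higher by 0.48 (SE 0.073, adjusted p = 0.00110) and was named after its values were seen. The call on Smchd1 held in each of the 47 alternatives, with a highest adjusted p of 0.000276 and a log2 value of -0.81 to -0.69. Per the reporting summary of the study, cell lines from its maternal deletion cross with a different Cre transgene lack exon 4 of the C57BL/6 allele. Gene-level counts pool reads over all exons, so whether reads from other exons of the deleted allele are among them was not tested.

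Smchd1 did not show a slope on somite number that passed the test in either genotype. The estimate was 0.04 per somite on the log2 scale in Smchd1 wt embryos (SE 0.026, adjusted p = 0.441) and 0.00 in Smchd1 matΔ embryos (SE 0.031, adjusted p = 0.989). The difference between those slopes was -0.04 per somite with a 95% interval of -0.12 to 0.04. Among Smchd1 wt embryos, 8 males averaged 149 ± 31.4 CPM (SD) and 13 females 150 ± 17.0 CPM, and among Smchd1 matΔ embryos 5 males averaged 85.7 ± 11.5 CPM and 11 females 90.1 ± 14.4 CPM. The sex effect, male over female, was -0.05 (95% interval -0.23 to 0.13).

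Lrif1, which encodes the SMCHD1 binding partner, was the least abundant member in CPM. It was at 22.4 ± 4.61 CPM over the 21 Smchd1 wt embryos and 21.3 ± 4.52 CPM over the 16 Smchd1 matΔ embryos (mean ± SD). Its range was 15.7 to 29.9 CPM in Smchd1 wt and 13 to 27.9 CPM in Smchd1 matΔ embryos, and the genotypes overlapped at all 6 stages. The genotype effect was -0.09 (95% interval -0.30 to 0.12, adjusted p = 0.932). Without the 3 libraries that stood apart it was -0.05, and over the 47 alternatives it was -0.13 to -0.05. The Smchd1 matΔ mean went from 82.8% of the Smchd1 wt mean at 6 somites to 113% at 10 somites, higher at each step, and was 79.7% at 11 somites. Lrif1 did not pass the slope test, with -0.05 per somite in Smchd1 wt (adjusted p = 0.480) and 0.03 in Smchd1 matΔ embryos (adjusted p = 0.808). The exons of Lrif1 share 1064 bases (11.6%) with Gm38253 on the same strand. Gm38253 received 235 counts over all embryos, or 2.12% of those of Lrif1.

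Hnrnpk, at the head of the recruitment route, was the most abundant and the least variable member. It was at 1324 ± 116 CPM over the 21 Smchd1 wt embryos and 1306 ± 97.4 CPM over the 16 Smchd1 matΔ embryos (mean ± SD). The stage means of Smchd1 matΔ embryos were 95.9% to 102% of those of Smchd1 wt embryos. The genotype effect was -0.02 with a 95% interval of -0.11 to 0.07 (adjusted p = 0.990). The slopes were 0.01 per somite in both Smchd1 wt (adjusted p = 0.856) and Smchd1 matΔ embryos (adjusted p = 0.776). The lowest value of all embryos, 1041 CPM, was in Smchd1 wt replicate 1 at 10 somites. The level is that of the locus as counted, since 14.3% of the 75-base windows of Hnrnpk transcripts also occur in another annotated gene, 780 of 7179 windows in Gm7964. Rmi1 shares 330 exonic bases on the opposite strand, and whether strand was used in counting is not given in the sources used here, so reads of this stretch cannot be told apart.

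**Figure D2:**
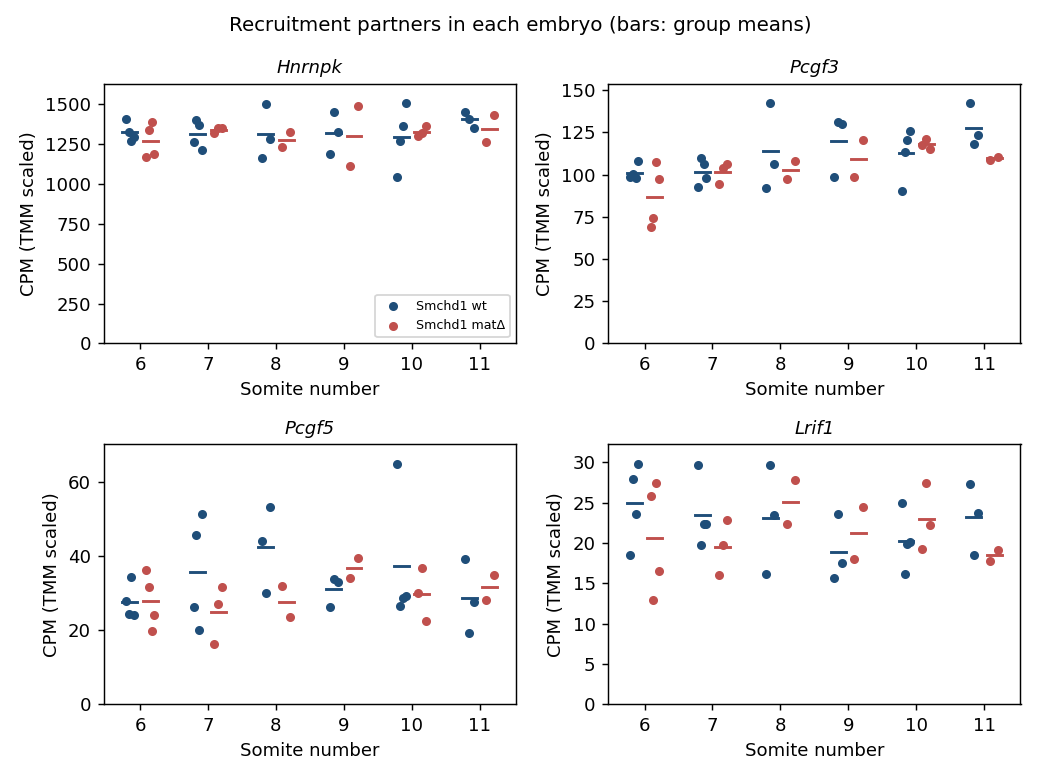
Levels of Hnrnpk, Pcgf3, Pcgf5 and Lrif1 in CPM (vertical axes, each from 0) against somite number, with 1 point per embryo and a bar at each group mean. The genotypes overlap at every stage except for Pcgf3 at 11 somites and Pcgf5 at 9 somites, and the Smchd1 wt embryo at 64.8 CPM of Pcgf5 at 10 somites stands above the rest.

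Pcgf3 and Pcgf5 encode alternative subunits of the variant PRC1 that deposits ubiquitin on histone H2A on the inactive X. Pcgf3 was the more abundant, at 112 ± 16.1 CPM over the 21 Smchd1 wt embryos and 103 ± 14.8 CPM over the 16 Smchd1 matΔ embryos (mean ± SD). At 6 somites it was at 98.5, 100, 98.0 and 108 CPM in Smchd1 wt and at 68.9, 74.1, 107 and 97.5 CPM in Smchd1 matΔ embryos. The 2 lowest values of the series, 68.9 and 74.1 CPM, belonged to the ribosomal RNA rich libraries. At 7 somites Pcgf3 was at 92.9, 110, 106 and 97.9 CPM in Smchd1 wt and at 94.2, 104 and 106 CPM in Smchd1 matΔ embryos. At 8 somites it was at 92.1, 142 and 106 CPM against 97.3 and 108 CPM. At 9 somites it was at 98.3, 131 and 130 CPM against 98.4 and 121 CPM. The groups overlapped at each of these 4 stages. At 10 somites Pcgf3 was at 90.1, 113, 121 and 126 CPM against 117, 121 and 115 CPM. At 11 somites it was at 142, 118 and 123 CPM against 109 and 110 CPM. Both Smchd1 matΔ embryos with 11 somites were below the 3 Smchd1 wt embryos, as was the case for 13.5% of all genes tested at that stage. The genotype effect over all stages was -0.11 (95% interval -0.23 to 0.01, adjusted p = 0.874). Over the 47 alternatives it was -0.15, in females alone, to -0.06, without the ribosomal RNA rich pair.

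In these fits Pcgf3 had the steepest slopes on somite number of the members. In Smchd1 wt females alone, however, Lrif1 (-0.07) and Pcgf5 (-0.07) had slopes larger in size than Pcgf3 (0.06), and without the ribosomal RNA rich pair so had Pcgf5 in Smchd1 matΔ embryos (0.10, against 0.04 for Pcgf3). The Pcgf3 slope over all embryos of a genotype was 0.06 per somite in Smchd1 wt embryos (SE 0.022, unadjusted p = 0.0116, adjusted p = 0.102, edgeR) and 0.08 in Smchd1 matΔ embryos (SE 0.025, unadjusted p = 0.00575, adjusted p = 0.103, edgeR). Neither passed the test, where 6.64% and 3.07% of all genes did. The slope difference between genotypes was 0.02 per somite (95% interval -0.05 to 0.09). No gene of the 15978 passed the edgeR test of that difference, 626 had an unadjusted p under 0.05, and DESeq2 called 28. A slope common to both genotypes, fitted to all 37 embryos with genotype and sex as covariates and chosen after the separate slopes had been seen, was 0.07 per somite (SE 0.016, adjusted p = 0.00274, edgeR). By that fit Pcgf3 rose 1.27-fold from 6 to 11 somites, and 18.6% of all genes were called. Without the 3 libraries that stood apart the common slope was 0.06 (adjusted p = 0.00212, with 19.4% of all genes called). The separate slope in Smchd1 matΔ embryos was 0.04 without the ribosomal RNA rich pair (adjusted p = 0.348). That in Smchd1 wt embryos passed the test without replicate 1 at 10 somites (0.07, adjusted p = 0.0223) or without replicate 2 at 8 somites (0.06). Markers of other cells also moved with stage. The median summed endoderm marker level went from 1095 CPM at 6 somites to 59.3 CPM at 11 somites in Smchd1 wt embryos, and from 1041 to 210 CPM in Smchd1 matΔ embryos. The median summed erythroid marker level went from 91.1 to 882 CPM and from 118 to 2931 CPM. Their part in the slopes was not tested. The other members did not pass the common slope test, with an adjusted p of 0.560 for Smchd1 (0.02 per somite, or 0.04 with an adjusted p of 0.134 without the 3 libraries), 0.647 for Lrif1, 0.656 for Hnrnpk and 0.771 for Pcgf5.

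Pcgf5 was the most variable member between embryos. It was at 33.7 ± 11.9 CPM over the 21 Smchd1 wt embryos and 29.2 ± 6.56 CPM over the 16 Smchd1 matΔ embryos (mean ± SD). At 6 somites it was at 27.8, 24.4, 34.3 and 24.2 CPM in Smchd1 wt and at 36.0, 31.7, 19.7 and 24.1 CPM in Smchd1 matΔ embryos. At 7 somites it was at 26.1, 45.7, 20 and 51.2 CPM against 16.3, 27.0 and 31.5 CPM. The Smchd1 wt embryos at 7 somites thus differed by more than the genotypes did. At 8 somites Pcgf5 was at 44.0, 30.1 and 53.1 CPM against 31.8 and 23.5 CPM. At 9 somites it was at 26.3, 33.8 and 32.9 CPM against 34.1 and 39.3 CPM. At 9 somites both Smchd1 matΔ embryos were above the 3 Smchd1 wt embryos, as in 6.47% of all genes tested. At 10 somites it was at 64.8, 26.4, 28.6 and 29.0 CPM against 30.1, 36.6 and 22.3 CPM. At 11 somites it was at 39.1, 19.1 and 27.5 CPM against 28.2 and 34.8 CPM. The highest value of all embryos was in Smchd1 wt replicate 1 at 10 somites. The genotype effect on Pcgf5 was -0.17 (95% interval -0.44 to 0.11, adjusted p = 0.904). Over the 47 alternatives it was -0.23, without the ribosomal RNA rich pair, to -0.09, without that Smchd1 wt embryo. The slopes were 0.00 per somite in Smchd1 wt (95% interval -0.12 to 0.12) and 0.07 in Smchd1 matΔ embryos (95% interval -0.03 to 0.16), where it was 0.10 without the ribosomal RNA rich pair (adjusted p = 0.311).

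The same Smchd1 wt embryo at 10 somites held the lowest Smchd1, Hnrnpk and Pcgf3 values of its genotype and the highest Pcgf5 value. Its Lrif1 value, 25.0 CPM, was inside the range of the other embryos. Its summed tailbud marker level was the lowest of the series. Its summed erythroid marker level, 3781 CPM, was the highest of the Smchd1 wt embryos, while Smchd1 matΔ embryos reached 4127 CPM. Its summed endoderm marker level was 2317 CPM, where Smchd1 wt embryos reached 3206 CPM. Smchd1 matΔ replicate 2 at 10 somites had 4095 and 2460 CPM of the erythroid and endoderm markers, and its summed tailbud marker level, 835 CPM, was the lowest of its genotype. That embryo had Smchd1, Hnrnpk, Pcgf3 and Pcgf5 at 98.5, 1318, 121 and 36.6 CPM, and its Pcgf3 value was the highest of its genotype. The part of these markers in the member values was not tested.

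The members differed in their spread between embryos. Within groups, the SD of log2 CPM was 0.44 for Pcgf5, 0.32 for Lrif1, 0.24 for Smchd1, 0.19 for Pcgf3 and 0.14 for Hnrnpk. Counting alone would give 0.095, 0.10, 0.049, 0.048 and 0.013 in the same order. The median SD of the 9762 genes with a mean of at least 10 CPM was 0.21, so Pcgf5, Lrif1 and, by a small margin, Smchd1 lay above the median gene and Pcgf3 and Hnrnpk below it.

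**Figure D3:**
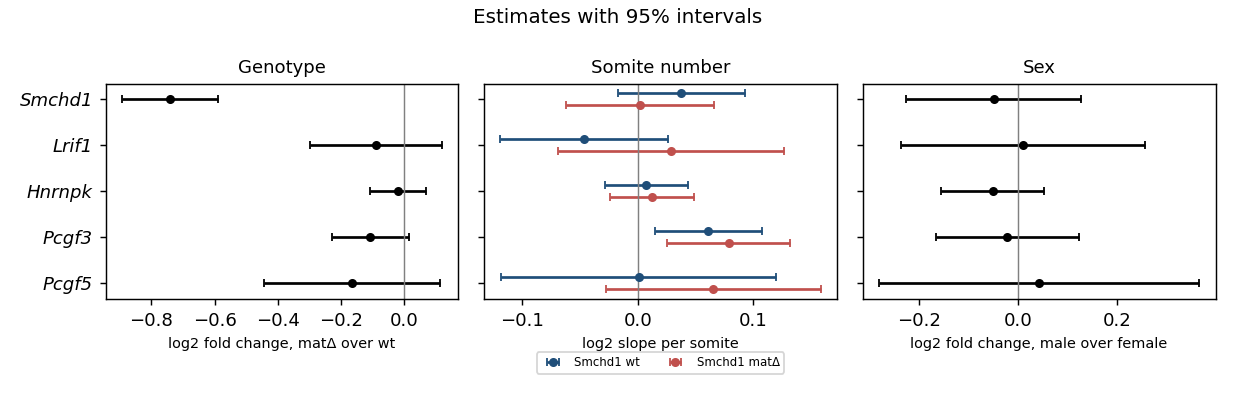
Estimates of each member with 95% intervals on the log2 scale, for genotype (Smchd1 matΔ over Smchd1 wt), the slope per somite in each genotype, and sex (male over female). The genotype interval of Smchd1 (-0.89 to -0.59) is the one that lies away from 0 among the genotype and sex intervals. Both Pcgf3 slope intervals lie above 0 before adjustment over all genes.

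Sex was compared because silencing of the inactive X occurs in females. No member was called between males and females, where 35 genes of 15978 were (0.219%). The estimates, male over female, were 0.01 for Lrif1 (95% interval -0.24 to 0.26), -0.05 for Hnrnpk (-0.16 to 0.05), -0.02 for Pcgf3 (-0.17 to 0.12) and 0.04 for Pcgf5 (-0.28 to 0.37). The 24 females had 277 to 1213 CPM of Xist, the noncoding RNA of the inactive X, and the 13 males 0.088 to 17.1 CPM.

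Levels were compared between members per kilobase of exon, as CPM per kb. In Smchd1 wt embryos the order was Hnrnpk (205), Pcgf3 (11.7), Smchd1 (7.48), Pcgf5 (2.67) and Lrif1 (2.44). Pcgf3 exceeded Smchd1 in 21 of 21 Smchd1 wt embryos, by a ratio of means of 1.57, although the ranges over embryos overlapped. Pcgf5 exceeded Lrif1 in 14 of 21, and this neighbouring pair did not differ beyond its spread. In Smchd1 matΔ embryos the order was Hnrnpk (202), Pcgf3 (10.8), Smchd1 (4.44), Lrif1 (2.31) and Pcgf5 (2.31). The Pcgf3 to Smchd1 ratio was 2.43 and their ranges no longer overlapped, while Lrif1 and Pcgf5 were level. Per unit length, Pcgf3 transcripts were the more abundant of the Pcgf3 and Pcgf5 pair in both genotypes.

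**Figure D4:**
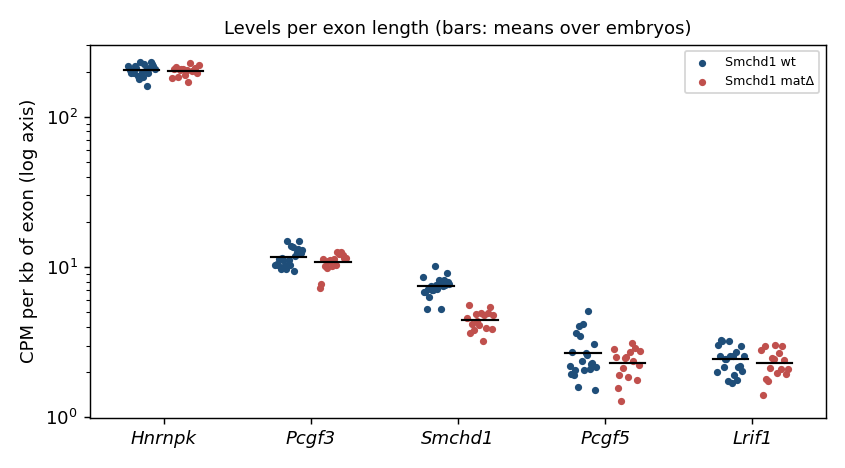
Level of each member in CPM per kb of exon (vertical log axis), with 1 point per embryo and a bar at each genotype mean. Hnrnpk is far above the rest (205 in Smchd1 wt embryos), and Smchd1 falls from 7.48 to 4.44 between genotypes while Pcgf5 and Lrif1 overlap.

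Across the 21 Smchd1 wt embryos, Smchd1 levels followed those of Hnrnpk (Pearson r of log2 CPM 0.68) and Pcgf3 (0.67), and Hnrnpk followed Pcgf3 (0.77). In the 16 Smchd1 matΔ embryos these values were 0.50, -0.06 and 0.48. Pcgf5 ran against Hnrnpk in Smchd1 wt embryos (-0.45) and Lrif1 was near 0 with Smchd1 (-0.08). These are descriptions across embryos that share differences in stage, depth and tissue composition, and they include the Smchd1 wt embryo at 10 somites that stood apart. The genes most like each member over the Smchd1 wt embryos, among 9753 compared, were Taf5, a subunit of the general transcription factor TFIID, for Smchd1 (r 0.90), Tor1aip2 for Lrif1 (0.85), Nap1l1, a histone chaperone, for Hnrnpk (0.95), Gbe1, the glycogen branching enzyme, for Pcgf3 (0.93) and Sgce for Pcgf5 (0.87). Because these genes were picked as the highest in Smchd1 wt embryos, lower values are to be anticipated in the others. In Smchd1 matΔ embryos they were -0.26 for Taf5, -0.18 for Tor1aip2, 0.87 for Nap1l1, 0.58 for Gbe1 and 0.55 for Sgce.

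The genes around the members in the pathway were examined as lists. Of 11 subunits of PCGF3/5-PRC1, 10 were tested, since Auts2 was too low (at most 0.968 CPM). None was called between genotypes by the edgeR test, where 0.0125% of all genes were, and 0 had an unadjusted p under 0.05, where 5.67% of all genes had. The median effect was -0.02 on the log2 scale, beside -0.00 over all genes tested. The catalytic subunit gene Rnf2 had 190 ± 28.6 CPM over the 21 Smchd1 wt embryos and 178 ± 22.6 CPM over the 16 Smchd1 matΔ embryos (mean ± SD), with an effect of -0.09 (SE 0.062, adjusted p = 0.882). Dcaf7, which encodes a scaffold protein of the complex, had 151 ± 16.1 and 152 ± 12.6 CPM. Rybp, whose product stimulates the ligase, had 57.0 ± 5.37 and 54.9 ± 7.12 CPM.

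None of the 4 other PCGF genes, which define other PRC1 complexes, was called between genotypes, and 1 (Pcgf6) had an unadjusted p under 0.05, against 5.67% of all genes tested, with -0.12 (SE 0.051, adjusted p = 0.867). Pcgf1, the subunit of the BCOR-containing PRC1, fell with somite number in Smchd1 wt embryos by -0.12 per somite (SE 0.031, adjusted p = 0.0259), and by -0.11 without replicate 1 at 10 somites (adjusted p = 0.0236). Its slope in Smchd1 matΔ embryos was -0.04 (adjusted p = 0.733), and the difference of the slopes did not pass the test (0.09, 95% interval -0.01 to 0.19). None of the 11 genes of Xist and its silencing factors was called between genotypes, and 3 had an unadjusted p under 0.05, against 5.67% of all genes tested. Rbm15, which encodes an RNA-binding adaptor for m6A methylation of Xist, rose with somite number in Smchd1 matΔ embryos by 0.10 per somite (SE 0.025, adjusted p = 0.0276). Without the ribosomal RNA rich pair the estimate was 0.08 and did not pass (adjusted p = 0.136). Its slope in Smchd1 wt embryos was 0.04 (adjusted p = 0.399), and the slope difference did not pass the test (0.07, 95% interval 0.00 to 0.14, unadjusted p = 0.0487, edgeR).

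None of the 9 HP1 and H3K9 methylation genes and none of the 13 genes of the canonical SMC family and its partners was called between genotypes, and 0 in each list had an unadjusted p under 0.05. The median effects were -0.01 and -0.02. Cbx3, which encodes HP1 gamma, had 169 ± 19.2 CPM over the 21 Smchd1 wt embryos and 158 ± 16.4 CPM over the 16 Smchd1 matΔ embryos (mean ± SD), and Smc5 had 176 ± 31.6 and 158 ± 25.7 CPM. On somite number, no gene of the lists other than Pcgf1 and Rbm15 passed the test in either genotype, where 6.64% of all genes did in Smchd1 wt and 3.07% in Smchd1 matΔ embryos. The lists thus held no larger share of calls between genotypes or on somite number than all genes did. Between the sexes, where 0.219% of all genes were called, Xist was the one gene of the lists called (-7.82, adjusted p = 2.41e-16, edgeR).

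**Figure D5:**
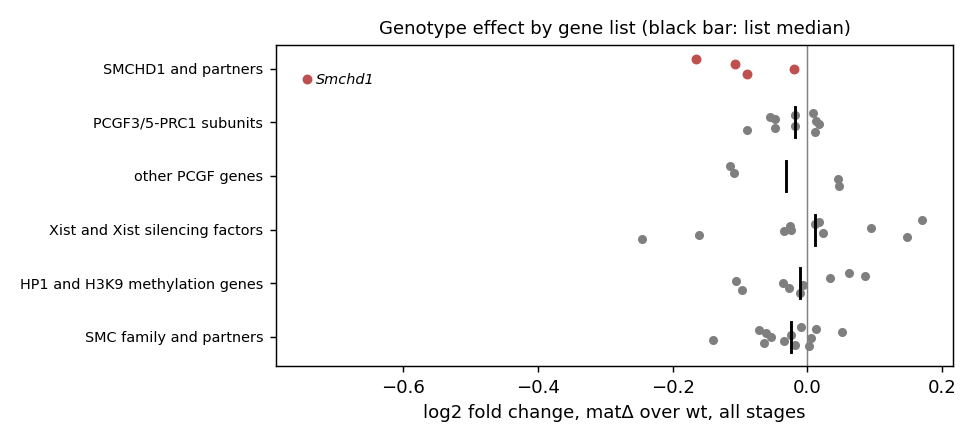
Genotype effect on the log2 scale (horizontal axis, Smchd1 matΔ over Smchd1 wt, all stages) for the members and for the genes of 5 lists, with 1 point per gene and a black bar at each list median. Smchd1 lies at -0.74, and the list medians lie between -0.03 and 0.01.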

How the data were processed

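RNA-seq was performed by the authors on tailbud tissue of 37 embryos, 1 library each, and the groups follow the labels. From the labels and published methods, the authors made poly(A) TruSeq libraries with or without strand information (which library used which kit was not stated), sequenced 75-base single-end reads, trimmed them with Trim Galore 0.4.4, mapped them to GRCm38.p6 with HISAT2 2.0.5 and quantified them in SeqMonk. The deposited table used here holds the authors' raw counts per gene. The deposited log2 RPKM table of Hox genes, and the authors' comparisons (p-values, false discovery rates and fold changes), were not used.

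Of 35591 rows, 49 with a repeated identifier were dropped, and 26 gene names that had become dates were restored. Library totals were 3.06 to 80.6 M counts (median 12.0) in Smchd1 wt and 0.916 to 30.2 M (median 14.2) in Smchd1 matΔ embryos. Pairs of libraries of a group were checked for a library deposited again (chi-square per degree of freedom 5.12 to 72.3, so none was). Counts were tested with the quasi-likelihood test of edgeR 4.0.16 (R 4.3.3), two-sided, after filterByExpr (minimum count 10) and TMM, with Benjamini-Hochberg adjustment over all genes tested and a threshold of 0.05. The genotype fit took each somite stage as a level and included sex, the sex fit likewise included genotype, and slopes used somite number as a continuous term with sex. Standard errors were computed from the F statistic. Log2 CPM values used a prior count of 2. P-values set each estimate against the spread between embryos, which were taken as independent. Litter is not in the labels used here, so it was not in the fits. The scripts were tested on simulated data. Alternatives were DESeq2 1.42.0 (test and size factors), library totals, no filter, a replicate block, changed covariates and subsets, and leaving out each embryo. Refits of Pcgf1 and Rbm15 without libraries that stood apart were chosen after seeing the data.

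The 5 members, the 5 context lists (48 genes) and the tests were chosen with earlier results of these data known. Named genes were the members, the genes most like each in Smchd1 wt embryos, genes of the lists that passed a test, and examples from the lists. Sequences and starts are from RefSeq (GRCm38.p6), and all 5 members matched. Gm7964 and Gm4130 were not analysed here, and the values of 1 list gene are not reported here.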

Additional observations from a re-analysis of the deposited data

Results flagged for a closer look

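Pcgf5 in Smchd1 wt replicate 1 at 10 somites, at 64.8 CPM, stood far from the other 3 embryos of its group, which were at 26.4 to 29.0 CPM. The gap took up 0.930 of the range of the group, above Dixon's 95% critical value for 4 samples. Chance marks about 1 in 20 such groups, and 20 combinations of member and group were examined. This library also had the lowest tailbud marker level, 511 CPM, and its part in the value was not tested.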

How the results depend on the processing

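Over 965 alternatives for the members, 903 kept their direction and their side of the threshold, 55 reversed, 7 newly passed the threshold and 0 lost it. All reversals were of values that did not pass the test. The cause of each change was not tested. The number of genes called between genotypes, 2, was 4 with DESeq2, 1 in females alone and 2 to 3 when each embryo was left out in turn. Genes called on somite number in Smchd1 wt embryos, 1006, were 1539 with DESeq2, 1802 in females alone, 668 to 1920 with each embryo left out (1920 without replicate 1 at 10 somites, 668 without replicate 1 at 6 somites), and 2898 or, without the 3 libraries, 2999 for the common slope of both genotypes, which was chosen after seeing the data. In Smchd1 matΔ embryos the 475 genes were 1102 with DESeq2, 301 without the ribosomal RNA rich pair, 175 in females alone and 254 to 638 with each embryo left out (254 without replicate 2 at 11 somites, 297 without replicate 1 at 7 somites, 312 without replicate 3 at 10 somites). The slope difference, with 0 genes, gave 39 without a filter and 28 with DESeq2.

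Pcgf3 passed on somite number in Smchd1 wt embryos in females alone (0.0629, adjusted p = 0.0186) and in the common slope (0.0686, or 0.0599 without the 3 libraries). With each embryo left out its slope was 0.0469 to 0.0715 (adjusted p 0.0223 to 0.286) and passed in 2 of 21 fits, those without replicate 1 at 10 somites and without replicate 2 at 8 somites. In Smchd1 matΔ embryos it passed with DESeq2 (0.0762, adjusted p = 0.0422).

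The main fits did not treat same-numbered embryos as pairs. Their deviations from the group means correlated at -0.24 to 0.76 (median 0.03), and at over 0.1 in 7 of 16 pairs. The values at 9 somites were 0.76 and 0.50. Deviations from the mean of a small group depend on each other, so these values cannot settle whether the embryos were paired. With a replicate block, Pcgf3 in Smchd1 matΔ embryos passed at 0.0884 (adjusted p = 0.0493), the genotype count stayed at 2 and the Smchd1 effect was -0.75 (adjusted p = 8.80e-08). Under the block the Smchd1 slope in Smchd1 matΔ embryos was -0.00835, and the sex effects of Hnrnpk, Pcgf3 and Pcgf5 were 0.00330, 0.130 and -0.0548.

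The other reversals follow. The Smchd1 slope in Smchd1 matΔ embryos was -0.00110 with DESeq2 size factors, -0.000492 with DESeq2, -0.00598 without sex and -0.0173 to 0.0170 with each embryo left out. The Pcgf5 slope in Smchd1 wt embryos was -0.00294 with library totals, -0.0677 in females alone and -0.0323 to 0.0341 with each embryo left out. The slope difference of Hnrnpk was -0.00101 without the ribosomal RNA rich pair, -0.0116 without the 3 libraries and -0.00506 to 0.0112 with each embryo left out, and that of Pcgf3 was -0.0203, -0.0321 and -6.65e-05 to 0.0308. Without the 3 libraries the sex effects of Lrif1, Pcgf3 and Pcgf5 were -0.00728, 0.0153 and -0.0691, and with each embryo left out they were -0.0490 to 0.0702, -0.0749 to 0.0161 and -0.0692 to 0.178. The Hnrnpk slope was -0.00120 to 0.0170 in Smchd1 wt and -0.00200 to 0.0163 in Smchd1 matΔ embryos, and the Lrif1 slope in Smchd1 matΔ embryos -0.00396 to 0.0484, with each embryo left out.

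Depth limits Lrif1 and Pcgf5 most, with 25 and 18 counts in their shallowest embryo. With 2 Smchd1 matΔ embryos at 3 stages, single stages carry little weight.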
